A study of Mus musculus with 4 samples.

Results

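The sites described here are missense substitutions, single-base changes that replace 1 amino acid, at which under 0.2 of the RNA reads carried the alternative base. They were selected on the measured read fractions, so the fraction itself is a description. Of 11806 listed variants over both lines, 1115 met this rule, 536 of 6361 in MBT2 and 579 of 5445 in LM8, at 1084 distinct positions. MBT2 is a mouse bladder cancer line (clone label 63) and LM8 a mouse osteosarcoma line. Both are syngeneic with C3H/HeN mice, carry no allele or agent named in the labels, and were grown untreated, with RPMI-1640 as the medium of MBT2 and MEM plus HEPES that of LM8. Each line gave 2 poly(A) RNA libraries, read in pairs of 75 bases with a kit that keeps strand. Nothing in the labels ties a duplicate to its own culture, so the difference between duplicates may be purely technical. The 4 libraries held 571088 to 790762 reads over their listed sites. The comparison sets were missense substitutions at a fraction of 0.2 or more, 218 in MBT2 and 57 in LM8, and synonymous substitutions under 0.2, 242 in MBT2 and 295 in LM8. None of the low-fraction sites lay in the lists of urothelial, osteoblast or other cell type markers, but few of these genes held any listed variant. Only 3 osteoblast and mesenchymal marker genes in MBT2 and 4 in LM8 did, and no gene of the other marker lists. The variant lists hold no expression values, so the cell type was not checked.

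An alternative base in RNA reads shows the RNA molecule as it was copied and sequenced, and the DNA of these cells was not analysed here. One well-studied source of base changes in RNA is adenosine-to-inosine editing, in which ADAR enzymes deaminate adenosine in double-stranded RNA and the product is read as guanosine. In a few transcripts this recodes an amino acid, as in Azin1, an inhibitor of antizyme in polyamine metabolism, and Flna, an actin cross-linker. Base changes are therefore given here on the transcribed RNA strand, with T for uracil.

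Sequences around the sites on which the results turn are shown first, with 12 bases before and 12 after the changed base, read from GENCODE M21 transcripts in RNA sense, 5′ to 3′. Capitals mark the changed base and the next 6 bases, and positions are GRCm39 coordinates from the deposited lists. The first set was chosen because G>A changes just before a run of adenines occurred in both lines: Eif3a at chr19:60770405 (minus strand), Eif4e at chr3:138252121 (plus), Smarca5 at chr8:81431388 (minus), Senp5 at chr16:31808312 (minus), Nucks1 at chr1:131858837 (plus) and Smc4 at chr3:68925447 (plus).
Eif3a E99K: aaattagcagagGAAAAAAcagaag
Eif4e E20K: cctgcagaagagGAAAAAAcagagt
Smarca5 G943E: gtactaacaaagGAAAAAActatac
Senp5 G314E: ctgtggggaaggGAAAAAActgtca
Nucks1 E200K: aagaaatcaaagGAAAAAActcctt
Smc4 E340K: acgactcaaaagGAAAAAAttcatg

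The second set was chosen because in both lines the alternative base sat at the ends of reads. It holds Maged1 at chrX:93579515, Pelp1 at chr11:70285919, Cops3 at chr11:59720977, Shcbp1 at chr8:4786149, Ubxn2a at chr12:4935839 and Psmb4 at chr3:94792007, all on minus-strand genes.
Maged1 A763T: accgccaacttcGCCGCCAacttcg
Pelp1 A650T: tgccccactcctGCCCCCGtccctc
Cops3 C146Y: atgccgatctctGCCAGCTttgttt
Shcbp1 M651T: ttattgaaattaTGGGGAAccagtt
Ubxn2a W104R: ccttcagaattaTGGGGAAtttttg
Psmb4 N253D: tccgcacagaccAACTGGGacatcg

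The third set holds A>G changes in transcripts known as recoding targets, Azin1 at chr15:38491856 in exon 11, Igfbp7 at chr5:77555578 in exon 1, Flna at chrX:73270468 in exon 41 and Cdk13 at chr13:17979133 in exon 1, all coding and on minus-strand genes. The last 3 lines show sites with many alternative reads, Cct5 at chr15:31593099 in exon 8, Myh9 at chr15:77658185 in exon 24 and Asns at chr6:7685303 in exon 3, also on minus-strand genes.
Azin1 S367G: caaattgtggaaAGCTGTCttcttc
Igfbp7 K95R: gcaagaggcggaAGGGTAAagccgg
Flna Q2333R: tttctagtcttcAGGAGTCagggtt
Cdk13 Q35R: tcctgtcccctcAGCAGCCgccgct
Cct5 G365C: gagatctcctttGGCACTAcaaaag
Myh9 S1017N: agaagtccaagaGCCTGGCcaagct
Asns D118G: tctgtatgctggACGGGGTgtttgc

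The 2 lines held similar numbers of low-fraction missense sites, 536 and 579, with MBT2 over LM8 at 0.926 (exact 95% interval 0.822 to 1.04, counting error only). They fell in 491 MBT2 genes and 528 LM8 genes. The median site had 108.5 reads in MBT2 and 102 in LM8, and 5 alternative reads in each. The median fraction was 4.59% in MBT2 and 5.26% in LM8, with a range of 0.878% to 19.97% in MBT2 and 0.208% to 19.94% in LM8. The fraction was under 0.1 at 89.4% of MBT2 sites and 82.9% of LM8 sites. Just inside the limit were Ddx54 A513V (19.97%), Abi1 N323S (19.7%) and Ranbp6 Y749C (19.7%) in MBT2, and Scaf11 E670Q (19.93%) and Msh3 A204T (19.8%) in LM8. Just outside it were Ovgp1 K679M (20%), Med13l S2156Y (20.8%) and Vps13a M349I (20.8%) in MBT2, and Fosl2 R127C (20%), Smc5 R289C (20.1%) and Aurkb A324P (20.3%) in LM8.

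**Figure D1:**
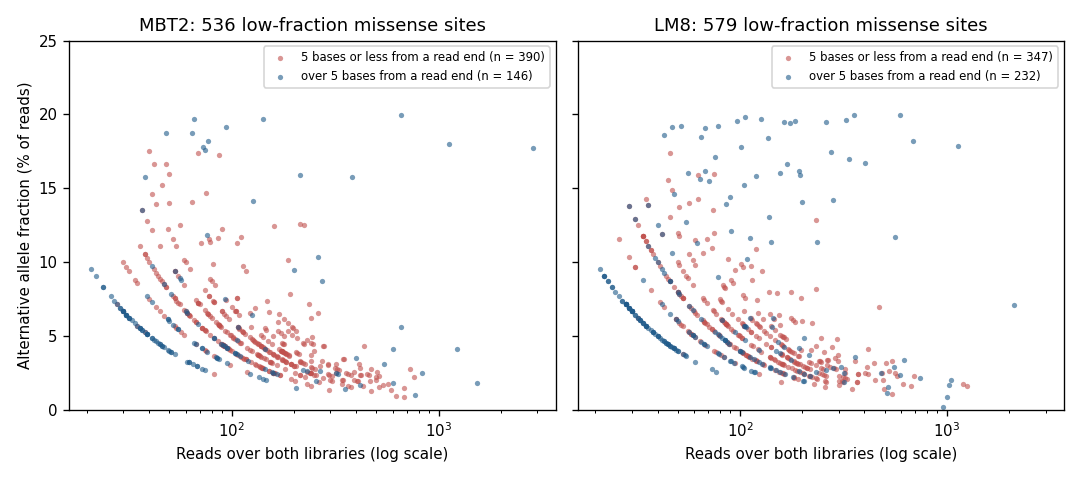
Alternative allele fraction (percent of reads) against reads over both libraries (log scale) for the 536 MBT2 sites (left) and 579 LM8 sites (right), 1 point per site. Red points, whose alternative base had a median distance of 5 bases or less from the read end, number 390 in MBT2 and 347 in LM8, and blue points lie farther inside the reads.

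The duplicate libraries gave like fractions. Pooled over the sites, 4.93% and 4.95% of reads were alternative in MBT2 libraries 1 and 2, and 5.44% and 5.20% in LM8 libraries 1 and 2. At 80.6% of MBT2 sites and 78.2% of LM8 sites both libraries held an alternative read. Fisher's exact test (two-sided) between libraries called 0 of 536 MBT2 sites and 0 of 579 LM8 sites after Benjamini-Hochberg adjustment over the whole list, as it called 0 of 6361 and 0 of 5445 listed sites (0% in each). At an unadjusted p under 0.05 it called 13 sites in each line, against 3.76% of all listed MBT2 sites and 3.89% of all listed LM8 sites, and a chi-square test with continuity correction called 0 in each list after adjustment and 148 and 145 listed sites before it. With 5 alternative reads at the median site, a difference between duplicates was not detectable at most sites.

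The most frequent changes were transitions, G>A first in both lines. G>A made up 29.9% of MBT2 sites and 28.3% of LM8 sites, A>G 20.9% and 18.5%, and T>C 20.3% and 19.5%. C>T, the transition opposite to T>C on the same strand, was less frequent, with 5.60% in MBT2 and 8.29% in LM8. Fisher's exact test over 12 classes called 0 classes between MBT2 and LM8 after adjustment and 1 at an unadjusted p under 0.05 (C>G, 0.933% in MBT2 and 2.59% in LM8, p = 0.0426, adjusted p = 0.511). The counts compare the 2 lists and not repeated cultures. Synonymous low-fraction sites were also led by G>A (38.0% in MBT2, 29.8% in LM8) and T>C (24.4% and 23.1%).

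High-fraction missense sites had other changes. In MBT2, G>A (29.9% of low-fraction sites, 11.0% of high-fraction sites), T>C (20.3% and 4.13%) and T>G (4.85% and 0.459%) were more frequent at low fraction, while G>T (2.80% and 27.1%), C>A (2.05% and 6.88%), G>C (2.24% and 6.88%) and C>G (0.933% and 4.13%) were less frequent. In LM8, T>C (19.5% and 0 of 57 sites), A>G (18.5% and 7.02%) and G>A (28.3% and 14.0%) were more frequent at low fraction, while C>T (8.29% and 19.3%), T>G (5.01% and 15.8%), G>C (3.28% and 14.0%) and G>T (1.38% and 8.77%) were less frequent. These are the 14 of 24 class comparisons that passed Fisher's exact test (two-sided, adjusted p from 2.61e-20 to 0.0478). The 0 T>C changes among 57 LM8 sites allow a share of up to 6.27% (exact 95% bound). Among sites whose alternative base lay over 5 bases from the read end, 2 of the 24 comparisons passed Fisher's exact test, G>T in MBT2 (adjusted p = 0.0014) and T>G in LM8 (adjusted p = 0.00577), both less frequent at low fraction. Without LM8 replicate 1, 9 comparisons passed, and with a fraction limit of 0.3, 6 passed. The T>G difference, low minus high fraction, changed sign to -0.0873 percentage points in MBT2 with a limit of 0.1 and to 6.03 percentage points in LM8 with a limit of 0.3, and it passed in neither line at either limit.

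**Figure D2:**
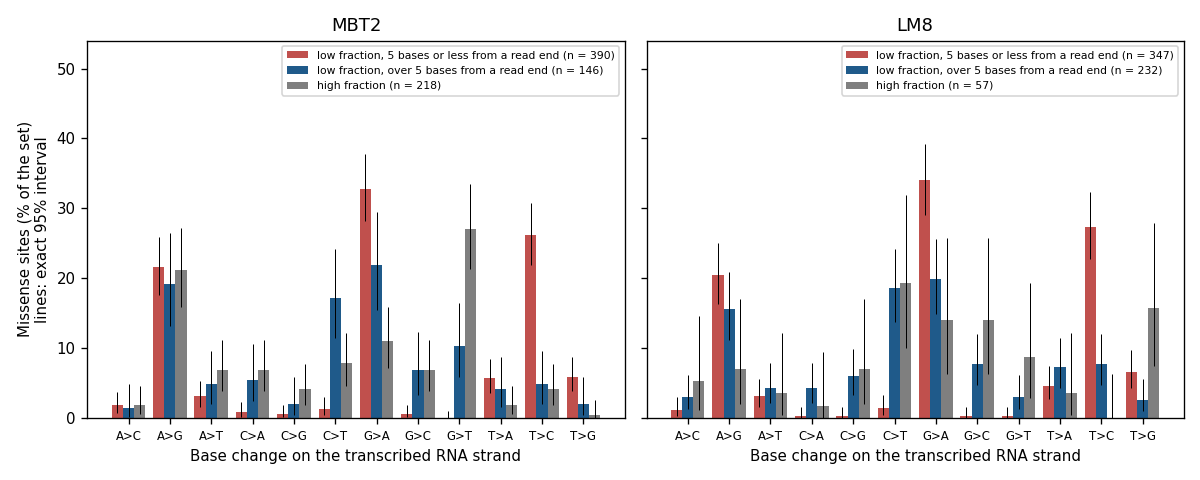
Share of missense sites (percent of the set, bars, with exact 95% intervals as lines) in each base change on the RNA strand, for MBT2 (left) and LM8 (right). Near read ends (red) G>A, T>C and A>G lead with 32.8%, 26.2% and 21.5% in MBT2, and farther inside (blue) C>T reaches 17.1%, while high-fraction sites (grey) are led by G>T with 27.1% in MBT2 and C>T with 19.3% in LM8.

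Most low-fraction changes lay close to the end of the reads that carried them. The caller's median distance of the alternative base from the read end was 2 bases in MBT2 and 3 bases in LM8, against 18 and 19 bases at high-fraction missense sites. It was 5 bases or less at 72.8% of MBT2 sites (390 of 536, exact 95% interval 68.8% to 76.5%) and 59.9% of LM8 sites (347 of 579, 55.8% to 63.95%). At high-fraction missense sites that share was 1.38% in MBT2 (3 of 218) and 0 of 57 in LM8. Synonymous low-fraction sites had shares of 71.1% in MBT2 and 60.7% in LM8, near those of the missense ones. The limit of 5 bases was chosen after the values were seen, and 23.7% of MBT2 sites and 34.9% of LM8 sites lay over 10 bases from the read end. The distance was exactly 1 base at 244 MBT2 sites and 214 LM8 sites. The near-end sites were carried by both libraries more often, 93.3% in MBT2 and 91.6% in LM8, than sites farther inside, 46.6% in MBT2 and 58.2% in LM8. This share also depends on the alternative reads per site, which were not matched between near-end and inside sites.

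**Figure D3:**
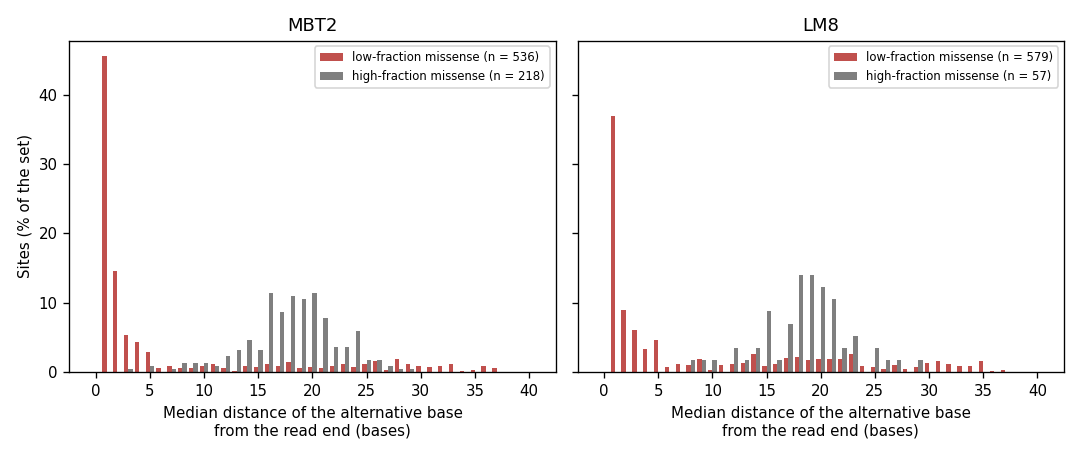
Median distance of the alternative base from the read end (bases) against the share of sites (percent of the set), for low-fraction missense (red) and high-fraction missense (grey) sites in MBT2 (left) and LM8 (right). A distance of 1 base holds 45.5% of the MBT2 and 37.0% of the LM8 low-fraction sites and none of the high-fraction ones.

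The base changes differed by place in the read. T>C was near a read end at 102 of 109 MBT2 sites and 95 of 113 LM8 sites, and G>A at 128 of 160 MBT2 sites and 118 of 164 LM8 sites. C>T was near a read end at 5 of 30 MBT2 sites and 5 of 48 LM8 sites, and G>T at 0 of 15 MBT2 sites and 1 of 8 LM8 sites. The read that carried the base also differed. Near read ends, 92.2% of alternative reads in MBT2 and 92.7% in LM8 ran antisense to the gene, against 66.7% and 67.3% of the reference reads at the same sites. Farther inside, 50.1% of alternative reads in MBT2 and 46.6% in LM8 ran antisense, against 48.0% and 47.5% of reference reads.

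Low-fraction sites were more often on genes of the minus strand. The share was 72.8% in MBT2 (390 of 536) and 66.0% in LM8 (382 of 579), against 49.1% (107 of 218) and 50.9% (29 of 57) at high-fraction missense sites. By Fisher's exact test (two-sided, 2 tests) the odds ratio was 2.77 in MBT2 (adjusted p = 2.48e-09) and 1.87 in LM8 (adjusted p = 0.0289), a comparison chosen after the values were seen. Over 5 bases from the read end, the share was 55.5% in MBT2 and 52.6% in LM8, and neither line passed Fisher's exact test (odds ratio 1.26, adjusted p = 0.668 in MBT2, and 1.07, adjusted p = 0.883 in LM8). In LM8 the exact test was also not passed without LM8 replicate 1 (odds ratio 1.71, adjusted p = 0.0505), nor with a fraction limit of 0.1 (odds ratio 1.43, adjusted p = 0.067). With a limit of 0.3 the LM8 odds ratio turned to 0.913, so the excess in LM8 depended on the limit, while that in MBT2 passed at both limits (2.55 at 0.1 and 2.66 at 0.3). Among synonymous low-fraction sites, 83.7% of G>A and 86.4% of T>C changes in MBT2 were on minus-strand genes. In LM8 these shares were 70.5% and 83.8%, so a high minus-strand share was not particular to missense changes.

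The bases after the changed one differed from those at other coding positions. For G>A near read ends, the next base was C at 58.6% of MBT2 sites and 59.8% of LM8 sites, and the next 2 bases were CC at 43.8% and 44.4%. At all G positions of the same transcripts where G>A is missense, CC followed at 8.34% in MBT2 and 8.85% in LM8. For T>C near read ends, GG followed at 47.5% of MBT2 sites and 56.4% of LM8 sites, against 11.9% and 12.2% of all such T positions, and GGG at 30.7% and 30.9%, against 2.35% in both. For A>G near read ends, GG followed at 42.9% of MBT2 sites and 43.7% of LM8 sites, against 7.75% and 8.27% of all such A positions. In the 3 classes, 86.9% to 94.0% of near-end sites had no T in the next 3 bases, against 44.5% to 52.0% of the background positions. Synonymous low-fraction sites near read ends had CC after G>A at 26.2% in MBT2 and 27.9% in LM8. GG followed T>C at 42.1% and 53.6% of them, and A>G at 56% and 35.3%. These motifs were thus present at synonymous sites too, for which no background share is given here. The motifs were read at the changed base in RNA sense only, the other strand was not searched, and CC, GG, GGG and absence of T overlap one another. The Maged1, Pelp1, Shcbp1 and Ubxn2a lines above show this pattern.

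**Figure D4:**
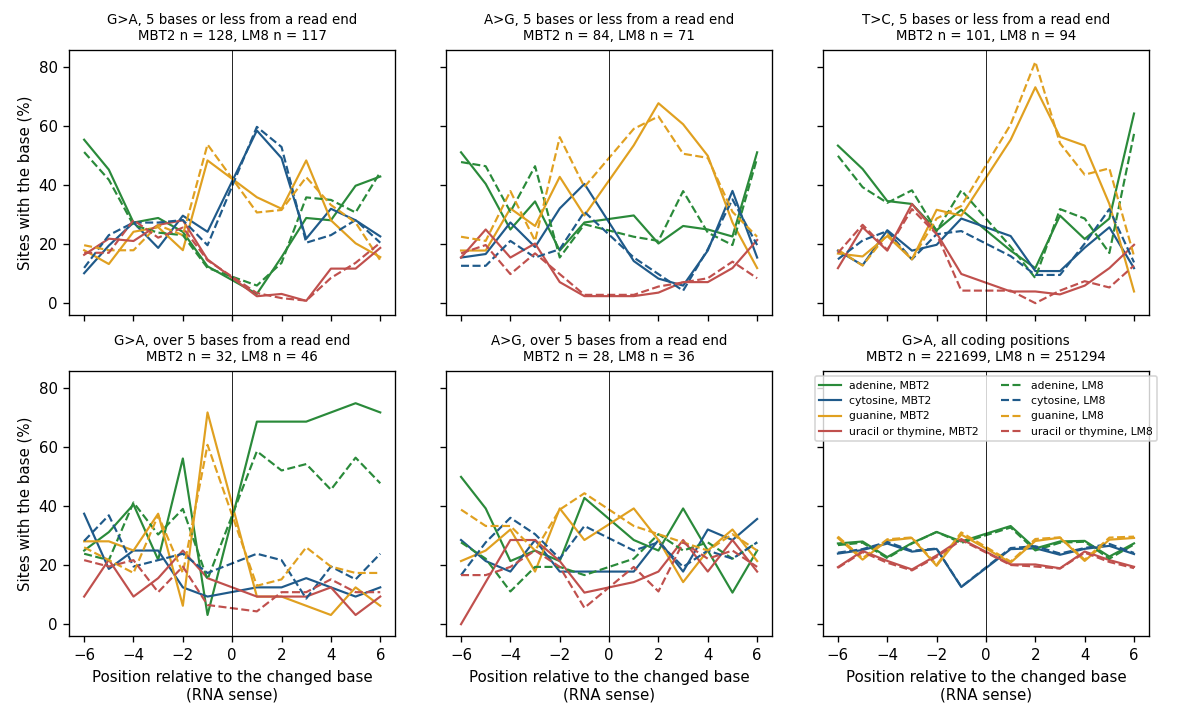
Share of sites (percent) with each base at the 6 positions before and after the changed base, RNA sense, solid lines for MBT2 and dashed for LM8. Near read ends (top row) C leads after G>A, at 58.6% and 59.8%, and G after A>G and T>C, while farther inside (bottom left) A follows G>A at 68.8% and 58.7%. The bottom right panel gives all coding positions where G>A is missense.

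A second sequence pattern lay inside the reads. Of the G>A sites over 5 bases from a read end, 20 of 32 in MBT2 (62.5%, exact 95% interval 43.7% to 78.9%) and 17 of 46 in LM8 (36.96%, 23.2% to 52.5%) had at least 6 adenines right after the G. At all G positions where G>A is missense the share was 0.0717% in MBT2 and 0.0649% in LM8, and it was 0 of 128 and 0 of 117 at matched near-end G>A sites. The 37 sites lay at 29 distinct positions. A G preceded the changed G in all 37, whereas at 699 GAAAAAA sites in 1592 coding transcripts with a listed change, G preceded 30.8%. Those 699 sites were not restricted to positions where G>A is missense. For a Gly to Glu change the codon itself fixes the preceding G, and 8 positions count once per line in the 37. The 2 shares are therefore not directly comparable. The change extended the adenine run by 1 base, as Glu to Lys at 12 MBT2 and 11 LM8 sites and Gly to Glu at 8 and 6. The median distance from the read end was 18 bases in MBT2 and 20 in LM8, and 12 of 20 MBT2 and 9 of 17 LM8 sites were on minus-strand genes. Synonymous low-fraction G>A sites inside reads held the run at 21 of 26 MBT2 and 10 of 26 LM8 sites, so it was not particular to missense changes.

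The fractions at these runs were low, 1.04% to 8.76% with a median of 2.62% in MBT2, and 0.896% to 11.3% with a median of 2.91% in LM8. The deepest was Hnrnpc E216K in MBT2, in an RNA-binding protein of nascent transcripts, with 2.24% and 1.46% of reads in libraries 1 and 2 and 28 alternative reads in all. Hnrnpc reads can be shared with near-identical copies, so its value is uncertain. In LM8 the highest was Pdxdc1 G17E with 16 of 141 reads. Genes with the run in both lines included Eif3a, a subunit of translation initiation factor 3, and Eif4e, the cap-binding protein. Eif3a E99K had 1.04% and 1.04% of reads in the MBT2 libraries and 1.11% and 2.27% in the LM8 libraries. Eif4e E20K had 2.95% and 5.37% in the MBT2 libraries and 5.08% and 2.04% in the LM8 libraries. The libraries of the 2 lines overlapped at Eif4e, while both LM8 libraries were above both MBT2 libraries at Eif3a, without passing the test between lines given next.

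At low fraction in both lines were 31 missense sites, 5.78% of the MBT2 sites and 5.35% of the LM8 sites. Of all listed variants, 6361 in MBT2 and 5445 in LM8, 1261 were listed in both lines. Reads at sites not listed in a line were not analysed, so a change missing from a list may still be present there. Near a read end in both lines were 21 of the 31, and 10 were farther inside in both: the 8 adenine-run sites (Eif3a, Nucks1, Smarca5, Eif4e, Smc4, Sec14l1, Senp5 and Syap1), Azin1 S367G and Cdk13 Q35R. Their fractions ran from 1.04% to 17.4% (median 5.33%) in MBT2 and from 1.66% to 15.9% (median 4.79%) in LM8, with 16 higher in MBT2 and 15 higher in LM8. No site differed by more than 1.80 times. Fisher's exact test of MBT2 against LM8, adjusted over the 1261 sites listed in both lines, called 0 of the 31 (smallest unadjusted p = 0.285) and 92 of all 1261 (7.3%), and 88 with the replicate number as a block, again 0 of the 31. Without LM8 replicate 1, Fisher's exact test called 54 of all shared sites. The 31 sites had to be under 0.2 in both lines, so sites with a larger fraction in either line were left out in advance. The 0 of 31 is therefore not comparable with the 7.3%, and is no sign that the lines agree. Low alternative read counts also limited what the test could detect. Nme2 G113D, in a nucleoside diphosphate kinase, had 6.19% and 14.4% of reads in the MBT2 libraries and 12% and 13.9% in the LM8 libraries. Nme2 is much like Nme1, so reads could be shared. Shcbp1 M651T, in a Shc-binding protein of dividing cells, had 7.14% and 5.38% in the MBT2 libraries and 7.47% and 6.49% in the LM8 libraries. Maged1 A763T had 2.31% and 2.16% in the MBT2 libraries and 2.06% and 2.53% in the LM8 libraries. A last site, Plk1 I192T in a mitotic kinase, was at 21.6% in MBT2, above the limit, and 9.38% in LM8, and did not pass the exact test (adjusted p = 0.0537).

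**Figure D5:**
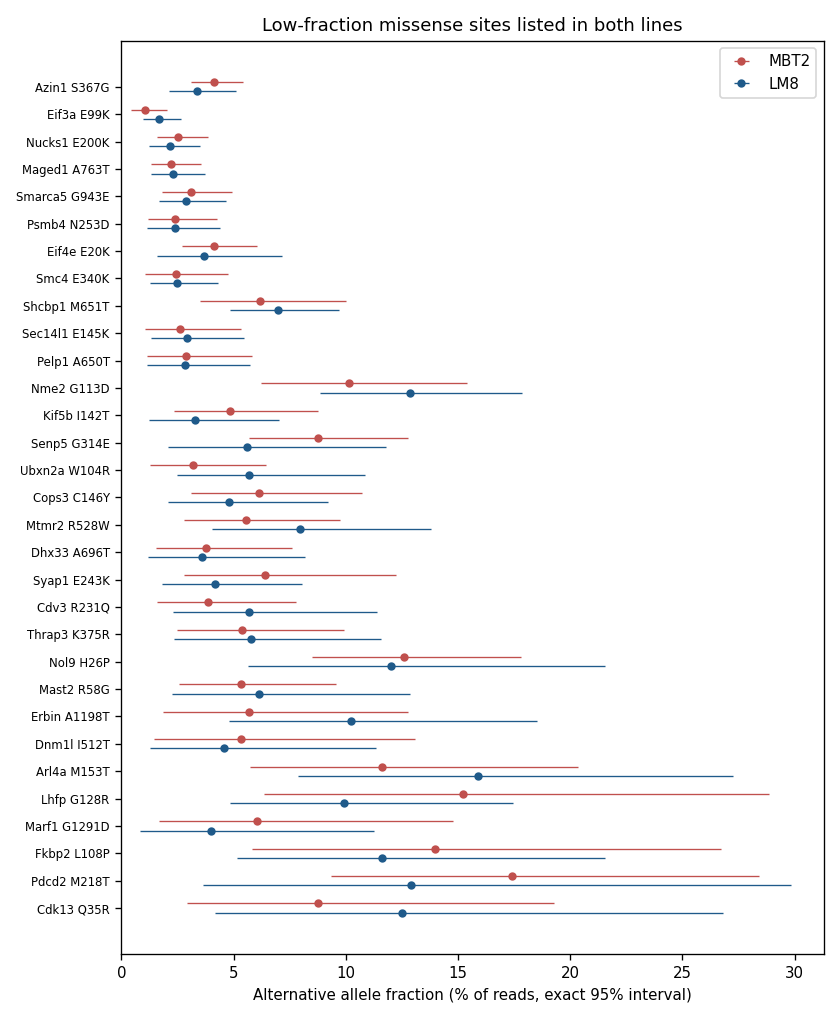
Alternative allele fraction (percent of reads, points, with exact 95% intervals as lines) of the 31 missense sites at low fraction in both lines, ordered by depth, MBT2 in red above LM8 in blue. The intervals of the 2 lines overlap at every site, with fractions from 1.04% and 1.66% at Eif3a E99K to 17.4% and 12.9% at Pdcd2 M218T.

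Of 29 genes listed as known recoding targets of adenosine-to-inosine editing, 11 in MBT2 and 10 in LM8 held any listed variant. Low-fraction missense sites lay in 3 of these 11 genes in MBT2 (27.3%, 4 sites) and 5 of these 10 in LM8 (50%, 7 sites). Over all genes with any listed variant the shares were 12.5% in MBT2 and 15.1% in LM8. The counts are small, and the difference in shares was not tested. A>G changes were 2 of the 4 MBT2 sites and 6 of the 7 LM8 sites, all 8 of them over 5 bases from the read end. Among all low-fraction missense A>G sites, including these, 28 of 112 in MBT2 and 36 of 107 in LM8 lay that far inside. Azin1 S367G, the recoding site known from human and mouse, had 5.32% and 3.03% of reads in MBT2 libraries 1 and 2, and 3.34% and 3.44% in LM8 libraries 1 and 2. Over both libraries that was 4.15% in MBT2 (51 of 1230 reads, exact 95% interval 3.10% to 5.42%) and 3.39% in LM8 (21 of 620, 2.11% to 5.13%), so the intervals overlap. Igfbp7 K95R, in a secreted binding protein of insulin-like growth factors, was listed at low fraction in LM8 alone, with 13.3% and 14.96% of reads (40 of 282, interval 10.3% to 18.8%). Flna Q2333R was also listed in LM8 alone, with 11.7% and 14.8% of reads (18 of 138, 7.92% to 19.8%), and lay in the last 4 bases of its exon. Cdk13, a kinase of transcription elongation, had Q35R in both lines (5 of 57 reads in MBT2, where library 2 had 0 alternative reads, and 5 of 40 in LM8) and, in LM8, N177S (3 of 61) and T166A (5 of 42). Reads at sites not listed in a line were not analysed here, so no difference between lines is given for the LM8-only sites.

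A few sites had far more alternative reads than the median of 5. In MBT2, Cct5 G365C, in a subunit of the chaperonin that folds actin and tubulin, had 18.4% and 17.2% of reads in libraries 1 and 2, 510 of 2875 in all (17.7%, exact 95% interval 16.4% to 19.2%). Ddx54 A513V and Nipbl R814L, in an RNA helicase and the cohesin loader, followed with 132 of 661 and 60 of 381 reads. In LM8, Myh9 S1017N, in non-muscle myosin heavy chain, had 19.97% and 15.5% of reads (203 of 1135). Scaf11 E670Q had 19.9% (119 of 597 reads) and Tmem183a Q341H 18.2% (125 of 686). Asns D118G, in asparagine synthetase, had 6.10% and 8.12% of reads (150 of 2108, 7.12%, interval 6.05% to 8.30%). Each of these 7 sites lay 16 to 25 bases from the read end, and none was listed in the other line. At least 10 alternative reads were present at 15.3% of MBT2 and 17.3% of LM8 sites.

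Genes seldom held several low-fraction missense sites, 42 genes in MBT2 and 44 in LM8 holding 2 or more. Sars2, a mitochondrial seryl-tRNA synthetase, held 3 in MBT2. In LM8, Sfi1, a centriole protein, held 7, and Ercc2, a helicase of transcription factor IIH, and Cdk13 held 3 each. The 7 Sfi1 sites had 30 to 51 reads each, of which 2 to 8 were alternative, fractions of 6.67% to 18.6% and distances of 9 to 33 bases from the read end. Sfi1 R291H and A292G, in neighbouring codons, each had 2 of 30 reads, and whether the same reads carried both was not checked. Sfi1 L823F and E1110G were among the 7 LM8 and 6 MBT2 sites to which the caller's germline resource gave a population frequency.

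The other 11 gene lists held few sites each, and their genes are counted against all genes with any listed variant, of which 12.5% in MBT2 (491 of 3933) and 15.1% in LM8 (528 of 3495) held a low-fraction missense site. Among translation genes it was 7 of 35 in MBT2 and 5 of 26 in LM8, with Rars L652R (2.70% and 2.79% of reads) and Eif3a E99K the deepest in MBT2. Among chaperone and protein turnover genes it was 8 of 28 and 8 of 27, with Psmd4 M358T, in a proteasome ubiquitin receptor, at 1.46% in MBT2 and Hsp90ab1 K577R at 8.15% in LM8. Among cytoskeleton and motor genes it was 8 of 24 and 8 of 19, with all 11 MBT2 sites within 5 bases of a read end. Cell cycle genes held sites in 4 of 23 MBT2 genes and 10 of 25 LM8 genes, among them the spindle motors Kif11 (D523G, 1.40%) and Kif4 (S1230P, 2.51%) in LM8. DNA replication and repair genes held them in 4 of 29 and 5 of 22, including Rpa1 G90D (5.26%) in MBT2 and Msh3 A204T (18.4% and 21.1% of reads in LM8 libraries 1 and 2). Extracellular matrix genes held them in 7 of 22 and 6 of 19, chromatin regulators in 3 of 27 and 4 of 28, RNA processing genes in 5 of 45 and 3 of 40, and metabolic genes in 4 of 27 and 7 of 22. Cancer driver genes held them in 3 of 32 and 4 of 26, and 7 of these 8 sites lay near a read end. Antigen presentation and interferon genes held them in 2 of 13 in each line, among them H2-Q4 R251K in LM8 at 9.92% and 13.2% of reads, a class I gene whose reads can be shared with its paralogs. Of the sites named in this paragraph, Rars L652R, Psmd4 M358T, Hsp90ab1 K577R, Kif11 D523G and Rpa1 G90D lay 1 to 4 bases from the read end. Eif3a E99K, Kif4 S1230P, Msh3 A204T and H2-Q4 R251K lay 11 to 26 bases from it.

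Amino acid changes followed the base changes. Ala to Thr, a G>A change, led with 8.40% of MBT2 sites (45) and 9.50% of LM8 sites (55). Next came Leu to Pro (24 sites) in MBT2 and Val to Ala (25 sites) in LM8, both T>C changes. The changed base was the second of its codon at 53.4% of MBT2 sites and 51.6% of LM8 sites. Missense changes made up 68.9% of coding substitutions at low fraction in MBT2 (536 of 778, exact 95% interval 65.5% to 72.1%) and 66.2% in LM8 (579 of 874, 63.0% to 69.4%), against 70.6% and 67.9% at high fraction. Fisher's exact test gave an odds ratio of 0.925 in MBT2 and 0.930 in LM8 (adjusted p = 0.81 in both), so no difference was detected. If each base change fell evenly over the codons of the same transcripts, the missense share at low fraction would be 69.1% in MBT2 and 68.9% in LM8, close to the measured ones. At high fraction it would be 74.6% in MBT2 and 72.4% in LM8. The expected shares thus differ with the base changes, and the exact test did not adjust for this.

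Low-fraction sites were also counted by their place in the exon. Near read ends, 4.90% of MBT2 sites (19 of 388) and 9.57% of LM8 sites (33 of 345) lay in the last 4 bases of an exon before a splice junction, against 2.38% and 2.37% of all coding positions of the same transcripts. None of these near-end sites lay in the first 4 bases after a junction. Farther inside the reads, 0 of 145 MBT2 sites and 1 of 232 LM8 sites, Flna Q2333R, lay in the last 4 bases. Nme2 G113D and Cdv3 R231Q, both present in both lines, were such exon-end sites.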

How the data were processed

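Both deposited files are lists of variants, 1 per line, with reference and alternative reads per library. The read counts per allele are the authors' deposited values. Mutect 2.2 took the libraries of each line together, and its calls were filtered and reduced to passing records, and annotated with SnpEff 5.1d on GRCm39 (database 105), per the file headers. The submitters' processing notes name bcl2fastq 2.17.1.14, cutadapt 1.9.1, STAR 2.7.9a and GATK 4.3.0 without roles. The file header instead gives GATK 4.1.5.0. Handling of spliced reads ahead of the caller was not given in the sources used here.

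Sites were taken where reference and alternative were 1 base, the effect was a non-synonymous coding change, and alternative reads over all reads, summed over 2 libraries, were under 0.2. The median distance from the read end, read orientation and population frequency are the caller's. The RNA strand came from the codon change. Transcripts of GENCODE M21 (GRCm38) were matched by identifier and codon, at 99.4% of MBT2 and 99.7% of LM8 sites, and none of their coordinates was used. Expected missense shares came from the codons of those transcripts.

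Sites, members and the 15 gene lists were chosen with earlier results of these data known. Named sites are the 10 deepest per line, those in both lines (up to 20), genes with 3 or more sites, up to 4 per gene list and line, all in known recoding targets, 3 on each side of the limit and the 5 with the highest caller odds; other names were chosen after their values were seen, and some sites named by the rule are not reported here. Tests were Fisher's exact tests (two-sided) with Benjamini-Hochberg adjustment and a threshold of 0.05, over variants of 1 list per line, so they compare lists. They were tested on simulated data. Intervals are exact Clopper-Pearson at 95% and cover counting error only, since amplified reads are no independent molecules. Alternatives were another limit, depth or read minimum, the caller's fraction, fragments, left-out libraries and sites far from read ends. Python 3.11.15, scipy 1.17.1, pandas 2.3.3, statsmodels and Biopython were used.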

Additional observations from a re-analysis of the deposited data

Results flagged for a closer look

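T>G changes were flagged because the 2 lines differed in the contrast of low with high fraction. T>G made up 4.85% of low-fraction and 0.459% of high-fraction missense sites in MBT2 (odds ratio 11.1), against 5.01% and 15.8% in LM8 (odds ratio 0.281). An exact test that both lines share 1 odds ratio gave an adjusted p of 0.000299 over 13 contrasts. The high-fraction counts behind it were 1 of 218 sites in MBT2 and 9 of 57 in LM8, while the low-fraction shares of the lines were near each other. With a fraction limit of 0.1 or 0.3 the direction changed in 1 line each, as given under the dependence on processing, and the cause was not tested.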

How the results depend on the processing

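The missense share did not pass its test in either line, and the minus-strand excess in MBT2 passed, under each limit, depth, read minimum, fraction measure and left-out library tried. The missense odds ratio in LM8 crossed 1, to 1.99, with a limit of 0.3. With that limit, 1 class differed between the lines (G>T), 6 class comparisons passed between low and high fraction, and the minus-strand odds ratio in LM8 was 0.913 (reversed); with a limit of 0.1 it was 1.43 (Fisher's exact test, adjusted p = 0.067). The T>G share at low minus high fraction changed sign to -0.0873 percentage points in MBT2 with a limit of 0.1, and to 6.03 in LM8 with a limit of 0.3. Requiring 5 alternative reads left 329 MBT2 and 335 LM8 sites. Sites over 5 bases from the read end, an alternative added after the data were seen, numbered 146 and 232 (ratio 0.629), with 2 class comparisons passing and minus-strand odds ratios of 1.26 and 1.07. Leaving out 1 library gave 9 to 15 passing class comparisons, 0 to 1 classes between lines, member ratios of 0.831 to 1.08, LM8 minus-strand odds ratios of 1.71 to 2.11, and 54 to 73 shared sites called, the fewest without LM8 replicate 1. The replicate block (Cochran-Mantel-Haenszel test by replicate number) called 88 shared sites against 92; the number only names a library. Depth limits most sites, whose median held 5 alternative reads. The fractions of the 157 named sites stayed within their intervals with fragments or the caller's fraction in place of reads. They moved outside them at 8 and 5 MBT2 sites without MBT2 replicate 1 and 2, and at 11 and 5 LM8 sites without LM8 replicate 1 and 2.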
